A study of Mus musculus with 12 samples.

Results

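The MORC genes encode a small family of chromatin ATPases. In the deposited table of mouse male germ cells the family is 5 genes of 55487, chosen as the rows whose Ensembl identifier maps to the symbols Morc1, Morc2a, Morc2b, Morc3 and Morc4. The cells are gonocytes, which precede the spermatogonia of the testis, isolated from Mvh-Venus transgenic mice, in which a fluorescent protein marks the germ line. RNA-seq was done at the embryonic stages E13.5 and E16.5, at birth (P0) and on postnatal day 3 (P3), with 3 libraries a stage and 12 in all. The series is about the effect of knocking out Morc1, and the question asked here is how Morc1 stands against its paralogues over these stages.

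Every group was untreated as far as the labels say, came from testis and carried the Mvh-Venus transgene. The labels give 2 versions of the Morc1 genotype. By title and source name every sample is WT, whereas the genotype tag reads Morc1 (+/-) at E13.5 and P0 and Morc1 (-/-) at E16.5 and P3. Libraries were therefore grouped by stage alone. In the comparisons of consecutive stages and of P3 against E13.5, a genotype difference, if the tag holds, cannot be told apart from stage. The labels do not say whether libraries of a stage came from separate animals, so the p-values measure only the spread between these libraries. The libraries are named by stage and by the numbers 1, 3 and 4 of the table's columns.

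MORC proteins share an ATPase module of the GHKL type, named after gyrase, Hsp90, histidine kinases and MutL. Most carry a CW-type zinc finger, which in some members can read methylated histone H3. They dimerize on nucleotide binding and compact or silence chromatin. In the mouse male germ line, Morc1 is known for the silencing and DNA methylation of transposons in fetal gonocytes, a window in which the genome is first cleared of DNA methylation and then methylated anew.

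The 5 genes lie at 5 separate places on the GRCm38 build, by the GENCODE M21 annotation. Morc1 spans chr16:48431237-48630900 on the plus strand, with 28 exons after merging its transcripts. Morc3 spans chr16:93832121-93876073 on the plus strand of the same chromosome, with 16 merged exons. Morc2a spans chr11:3649191-3690477 on the plus strand, with 25. Morc2b spans chr17:33113351-33139683 on the minus strand and has only 3 merged exons. Morc4 spans chrX:139821632-139871677 on the minus strand, with 16.

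Morc2a and Morc2b are the closest pair. Their coding sequences agreed at 80.1% of aligned bases, against 63.6% to 66.1% for every other pair in the family, so it matters whether reads can tell them apart. The longest run of bases that both coding sequences hold without a difference is 38 bases long, at coding positions 1138 to 1175 of each, and it is shown in capitals between 12 bases of flank on either side. The 62 bases shown lie within a single coding exon in both genes, at chr11:3679708-3679769 on the plus strand for Morc2a and at chr17:33137610-33137671 on the minus strand for Morc2b (GRCm38). The flanks show that the copies part on both sides of the run.
Morc2a: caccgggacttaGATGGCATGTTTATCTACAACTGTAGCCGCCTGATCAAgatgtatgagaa
Morc2b: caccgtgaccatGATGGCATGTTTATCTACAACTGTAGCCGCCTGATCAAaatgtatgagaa
No 50-base word of the longest protein-coding transcripts of Morc1, Morc2b, Morc3 or Morc4 occurred in another gene's transcripts. Of the Morc2a words 7.74% did, all of them in Tug1, a long noncoding RNA gene on the other strand whose exons cover 483 exonic bases of Morc2a. Whether the counting used strand is not given in the sources used here, so in those bases reads of Morc2a and Tug1 cannot be told apart.

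RefSeq start sites on GRCm38.p6 were found for Morc2a, Morc2b, Morc3 and Morc4, with 2 starts each for Morc2a and Morc2b. The 250 bases before a start are shown for Morc3, the paralogue that led the family at E13.5, and for Morc2b, which had no read there. CG pairs, the letters C then G that DNA methylation acts on, are in capitals. The Morc3 window is chr16:93831871-93832120 on the plus strand and the Morc2b window, next to the end of the GENCODE gene, chr17:33139684-33139933 on the minus strand.
Morc3: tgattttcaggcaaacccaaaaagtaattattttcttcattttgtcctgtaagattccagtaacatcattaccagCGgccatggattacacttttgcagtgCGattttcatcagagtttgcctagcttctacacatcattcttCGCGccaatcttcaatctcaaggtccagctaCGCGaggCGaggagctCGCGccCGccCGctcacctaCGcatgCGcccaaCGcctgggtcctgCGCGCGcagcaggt
Morc2b: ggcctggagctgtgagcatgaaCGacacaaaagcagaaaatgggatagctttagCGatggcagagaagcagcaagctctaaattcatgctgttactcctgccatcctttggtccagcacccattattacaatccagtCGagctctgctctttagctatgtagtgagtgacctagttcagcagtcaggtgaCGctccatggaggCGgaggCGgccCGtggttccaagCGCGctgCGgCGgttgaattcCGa
The Morc3 window holds 17 CG pairs and the Morc2b window shown 12. The window of the other Morc2b start, chr17:33148750-33148999 on the minus strand, holds 0 and is not printed. CG pairs had a median of 6 over 32851 RefSeq windows of 250 bases, of which 92.1% hold at least 1. The letters GGGCGG or, on the other strand, CCGCCC, which contain a CG, occurred in 32.7% of all windows. They occurred 1 time in the Morc3 window and were not found in the Morc2b window shown. A match describes the letters only.

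The libraries were deep and alike in depth. The reads recovered for all genes numbered 40946616 to 51533747 per library. A normalized count is a gene's reads divided by the library's size factor, and these factors averaged 0.939 for E13.5, 1.13 for E16.5, 1.94 for P0, and 1.01 for P3. The 7 germ cell markers listed, among them Dazl, Ddx4 and Mael, had reads in every stage. They summed to 133741 to 259602 normalized counts per library. With the deposited factors, which averaged highest at P0, these sums were lowest there. No marker sum was recomputed under another scaling. Markers listed for other cells were far lower but not even over the stages. Sums of 5 endothelial markers were 4469 to 5207 for E13.5 and 3715 to 3813 for E16.5. They were 1406 to 1647 for P0 and 666 to 827 for P3. Pecam1 led except at E16.5, where Vwf led. The height at E13.5 came from Pecam1 (mean 4618), whereas Cdh5 (9.92), Kdr (2.84), Tek (98.0) and Vwf (27.7) had their lowest means at that stage. No amount of endothelial cells is read from that sum. Sums of 7 Sertoli markers ran from 895 to 1501 for E13.5, 1273 to 2506 for E16.5, 2841 to 5368 for P0, and 1168 to 1800 for P3. Sums of 5 peritubular markers were 171 to 224, 1253 to 1867, 3699 to 4160 and 797 to 916 at the same stages. Of 6 mast cell markers all were at 0 for E13.5, and their sums were 24.2 to 43.5 for E16.5, 1463 to 3040 for P0, and 3.04 to 304 for P3. Sums of 6 Leydig markers differed between libraries of a stage, from 623 to 7763 at E16.5 and from 1133 to 6201 at P0, against 573 to 729 at E13.5 and 179 to 267 at P3. Insl3 and Lhcgr, defining markers of Leydig cells, were at 0 in all P3 libraries. In bulk RNA, fewer cells of a type and less RNA per cell cannot be told apart.

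Of the 4 members read in every stage, Morc1 had the widest range of levels. Its normalized counts were 1621, 1830 and 1640.5 for E13.5, 32917, 32890 and 28328 for E16.5, 7708, 7501 and 7280 for P0, and 10929, 10584 and 11129 for P3. No stage overlapped another: the E16.5 libraries lay highest, then P3, then P0, then E13.5. The stage means were 1697 ± 115, 31378 ± 2641, 7496 ± 214 and 10881 ± 276 (SD, n = 3). As a check of the labels, the 6 libraries tagged Morc1 (-/-) held 10777 to 35792 Morc1 reads each, against 1536 to 15083 in the 6 tagged Morc1 (+/-). A level counted over the whole gene says nothing of a deletion of some of its exons, and the deleted part is not given in the sources used here.

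Stages were compared with limma, a linear model fitted to all genes at once, on log2(normalized count + 1), and a change was called at an adjusted p under 0.05. The step from E13.5 to E16.5 was the largest in Morc1. Its log2 fold change was 4.21 (SE 0.07), equal to 18.5-fold, with a limma Benjamini-Hochberg adjusted p of 1.18e-16. Of all 22384 genes tested, 8.77% had a larger log2 fold change, and the median over all genes was 0.31. From E16.5 to P0 Morc1 fell by 2.06 on the log2 scale, or 4.18-fold (limma adjusted p = 1.59e-12), where the median gene moved by -0.01. The value was -1.40 with equal library totals, that is, with each library scaled to the same total in place of the deposited factors. At P3 it stood 0.54 above P0 (limma adjusted p = 4.35e-06), but this small rise hung on the scaling. Size factors recomputed as medians of ratios over genes also stand in for the deposited factors where named. Under equal library totals the rise turned to -0.30 (adjusted p = 0.000382), and under median-of-ratios factors it shrank to 0.10 (adjusted p = 0.232).

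Over longer spans, Morc1 was above its E13.5 level. It was 2.14 higher on the log2 scale at P0 (limma adjusted p = 5.70e-14; 3.31 with equal library totals) and 2.68 higher at P3 (limma adjusted p = 1.54e-14). Against E16.5 it was 1.52 lower at P3 (log2 fold change -1.52, limma adjusted p = 1.52e-11). Sums of 6 macrophage markers were also highest at E16.5, at 1005 to 1187 normalized counts per library, against 38.1 to 95.001 at E13.5, 212 to 358 at P0 and 266 to 305 at P3. That height came mostly from Cd68, which averaged 938 normalized counts at E16.5 and 38.8 at P0, whereas Cd163 (18.6 and 116), Adgre1 (47.5 and 72.7) and C1qa (2.59 and 9.75) had higher means at P0. The endothelial marker Vwf averaged 27.7, 3029, 451 and 95.4 normalized counts at the 4 stages in order, highest at E16.5 as Morc1 was. No other endothelial marker listed was highest there. Pecam1 was lowest at E16.5 (282). Cdh5 (29.8 at E16.5 and 45.3 at P0), Kdr (38.5 and 89.7) and Tek (387 and 448) had higher means at P0. The part of these cells in the Morc1 level was not tested. The genotype tag is the same on either side when P0 is set against E13.5, or P3 against E16.5.

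**Figure D1:**
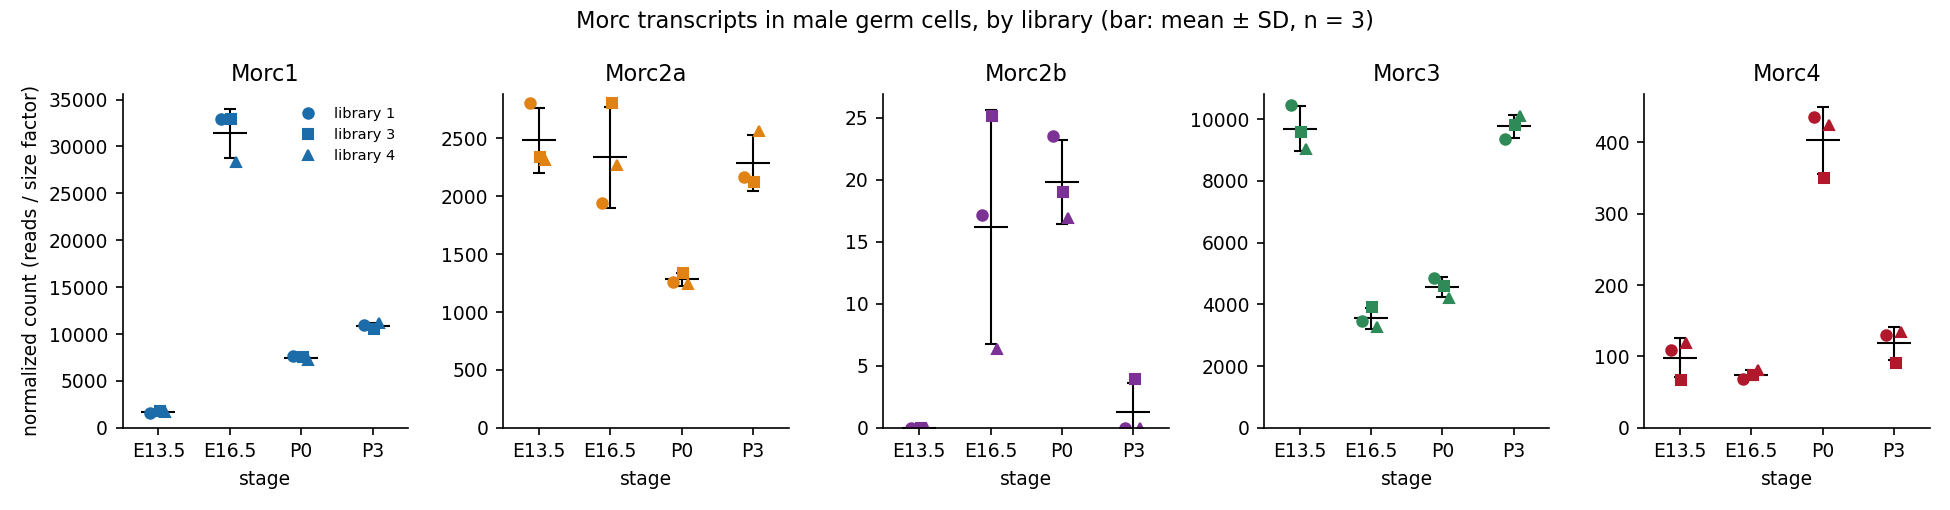
Normalized counts of the 5 Morc genes by stage, a panel per gene with its own linear axis from 0; symbols are the 3 libraries of a stage and bars are mean ± SD. Morc1 stands highest at E16.5, Morc3 is low at E16.5 and P0 with the deposited factors, Morc4 is highest at P0, and Morc2b has no read at E13.5.

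Morc3, which resides in PML nuclear bodies and binds trimethylated lysine of histone H3 through its CW finger, was lowest at E16.5, the stage at which Morc1 was highest. Its normalized counts were 10467, 9570.4 and 9044 for E13.5, 3469.6, 3907 and 3259 for E16.5, 4850.1, 4593 and 4203 for P0, and 9368, 9824 and 10101 for P3. The E16.5 libraries were lowest and P0 lay above them without overlap, while the E13.5 and P3 libraries overlapped. From E13.5 to E16.5 Morc3 fell by 1.45 on the log2 scale (SE 0.08, limma adjusted p = 5.07e-11), a value of -0.95 with equal library totals. It rose by 0.36 from E16.5 to P0 (limma adjusted p = 0.00110) and by 1.10 from P0 to P3 (limma adjusted p = 2.41e-09). With equal library totals the first of these rises was the larger, at 1.02 against 0.26. The difference of P3 from E13.5 was 0.01 with a 95% interval of -0.16 to 0.19 (limma adjusted p = 0.910), but 0.34 with equal library totals (adjusted p = 0.000447).

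Against E13.5, Morc3 was 1.09 lower at P0 on the log2 scale (log2 fold change -1.09, limma adjusted p = 1.51e-09), although with equal library totals the value was 0.08. From E16.5 to P3 it rose by 1.46 (limma adjusted p = 9.56e-11). With the deposited factors the order of its stages was thus E16.5, P0, and then E13.5 and P3, which did not differ beyond their spread. With equal library totals P0 did not pass the limma test against E13.5 (adjusted p = 0.307), whereas P3 did (adjusted p = 0.000447).

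Morc2a, whose human counterpart MORC2 works with the HUSH silencing complex, was the steadiest of the family. Its normalized counts were 2809, 2336 and 2310.4 for E13.5, 1938, 2802 and 2271 for E16.5, 1263, 1340.0 and 1241 for P0, and 2167, 2124 and 2564 for P3. The P0 libraries were below every other library, and the other 3 stages overlapped one another. The difference of E16.5 from E13.5 was -0.10 (95% interval -0.35 to 0.15, limma adjusted p = 0.449), and it turned to 0.12 with median-of-ratios factors and to 0.41 with equal library totals (adjusted p = 0.00689).

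Morc2a fell by 0.85 on the log2 scale from E16.5 to P0 (SE 0.12, limma adjusted p = 1.08e-05), a value of -0.19 with equal library totals (adjusted p = 0.187). It rose by 0.83 from P0 to P3 (limma adjusted p = 8.19e-06), which was -0.01 with equal library totals. TMM and median-of-ratios factors kept the direction and call of both. P3 differed from E16.5 by -0.02 (95% interval -0.27 to 0.23) and from E13.5 by -0.12 (95% interval -0.37 to 0.13, 0.21 with equal library totals), and neither difference passed the limma test. P0 lay 0.95 under E13.5 (log2 fold change -0.95, limma adjusted p = 1.12e-06), or 0.22 above it with equal library totals. Tug1, with which Morc2a shares exonic bases, averaged 739 ± 72.0, 344 ± 18.9, 359 ± 84.0 and 1578 ± 107 normalized counts at the 4 stages in order (SD, n = 3), and its part in the Morc2a values was not tested.

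Morc2b, a rodent copy of Morc2a known from meiotic germ cells, was near the limit of detection. It had 0 reads in each E13.5 library, 18, 27 and 8 reads at E16.5, 45, 35 and 35 at P0, and 0, 4 and 0 at P3. In normalized counts that is 17.2, 25.1 and 6.33 at E16.5 and 23.5, 19.0 and 16.9 at P0, which overlapped. Its mean was at least 5.07-fold higher at E16.5 and at least 6.20-fold higher at P0 than a floor of 3 reads per E13.5 library. P0 differed from E16.5 by 0.44 on the log2 scale (95% interval -0.87 to 1.76, limma adjusted p = 0.555). Since Morc2b passed the filter on low values only through E16.5 and P0, it had to differ from the other stages, and no further test of it is given.

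Other cells' markers moved with Morc2b: sums of 6 blood markers were 68.4 to 443 for E13.5, 1791 to 2528 for E16.5, 1601 to 2563 for P0, and 295 to 546 for P3. All 6 blood markers had reads in some library of every stage. The peritubular marker sums given above were also higher at E16.5 and P0 than at E13.5 and P3. The highest Leydig sums fell at E16.5 and P0 too, but E16.5 overlapped E13.5. The part of these cells in the Morc2b reads was not tested.

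Morc4, which also has a CW finger that binds methylated histone H3, was low except at P0. Its normalized counts were 109, 67.5 and 119 for E13.5, 67.8, 73.5 and 80.7 for E16.5, 435, 349 and 424 for P0, and 129.9, 91.3 and 134 for P3. The P0 libraries were above all others, and E13.5 overlapped both E16.5 and P3. Morc4 rose by 2.43 on the log2 scale from E16.5 to P0 (SE 0.23, 5.37-fold, limma adjusted p = 1.02e-07) and fell by 1.77 from P0 to P3 (limma adjusted p = 2.39e-06). P0 was also 2.06 above E13.5 (limma adjusted p = 2.52e-07). With equal library totals these 3 values were 3.09, -2.61 and 3.22.

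Between E13.5 and E16.5 Morc4 differed by -0.37 (95% interval -0.85 to 0.12, limma adjusted p = 0.147), or 0.13 with equal library totals. Without E13.5 library 3 the same difference was -0.62 (adjusted p = 0.0160). P3 was 0.65 above E16.5 (limma adjusted p = 0.0179) and differed from E13.5 by 0.28 (95% interval -0.20 to 0.77, limma adjusted p = 0.279). The first of these missed the threshold with median-of-ratios factors (0.47, adjusted p = 0.0739) and equal library totals (0.48, adjusted p = 0.0739). It also missed it without E16.5 library 1 (0.59, adjusted p = 0.0548), P3 library 1 (0.58, adjusted p = 0.0627) or P3 library 4 (0.56, adjusted p = 0.0673). The second passed it with equal library totals (0.61, adjusted p = 0.0267). The Sertoli, peritubular and mast cell marker sums given above were highest at P0 too, and their part in the Morc4 level was not tested.

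**Figure D2:**
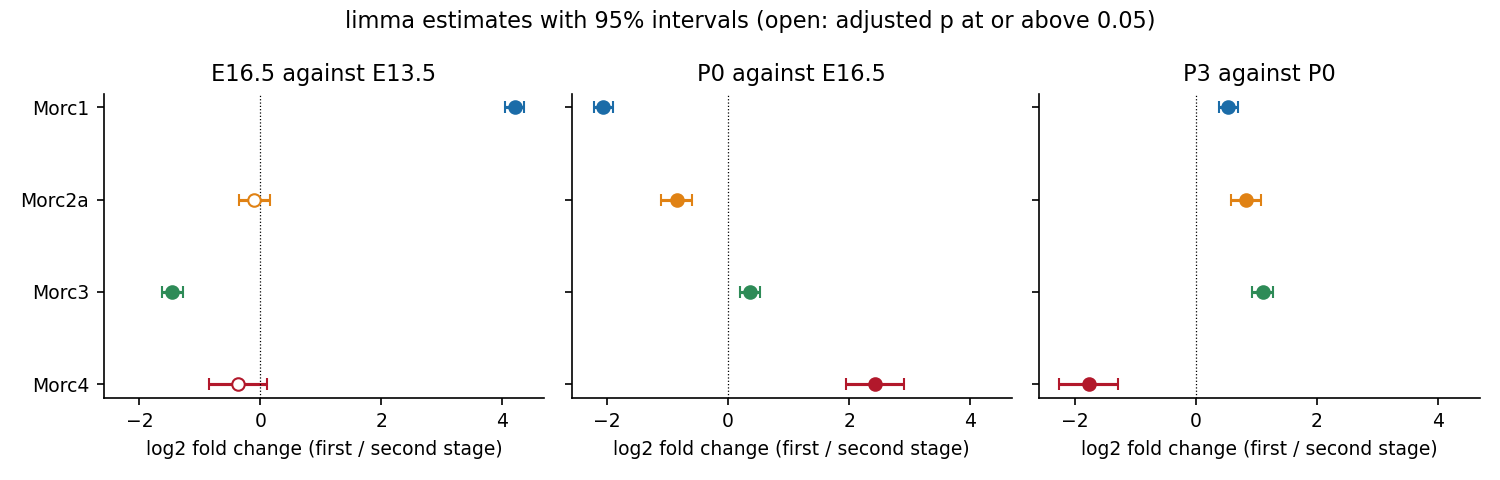
Log2 fold changes of 4 Morc genes between consecutive stages as limma estimated them, with 95% intervals; filled points passed an adjusted p of 0.05. Morc1 and Morc3 lie on opposite sides of 0 from E13.5 to E16.5 and from E16.5 to P0, at 4.21 against -1.45 and -2.06 against 0.36.

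Read over the 4 members other than Morc2b, an F-test over the stages called all 4, where it called 95.2% of all genes tested (limma, Benjamini-Hochberg adjusted p under 0.05). From E13.5 to E16.5, 1 was higher and 1 lower, where 45.5% of all genes were called higher and 34.6% lower. From E16.5 to P0, 2 were higher and 2 lower, with a background of 27.6% and 33.4%. From P0 to P3, 3 were higher and 1 lower, with 40.1% and 36.4% over all genes. Against E13.5, P0 had 2 higher and 2 lower (45.7% and 40.5% of all genes) and P3 had 1 higher and none lower (39.2% and 31.2%). P3 against E16.5 gave 2 higher and 1 lower (34.2% and 35.2%). Most genes of the table changed between stages, and nothing particular to the family is read from these counts.

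Levels of different genes were compared per kilobase of merged exon. At E13.5 Morc3 led with 1785 ± 133 normalized counts per kilobase, followed by Morc2a with 387 ± 43.7, Morc1 with 262 ± 17.8 and Morc4 with 16.3 ± 4.50 (SD, n = 3). At E16.5 the order was Morc1 with 4843 ± 408, Morc3 with 653 ± 60.9, Morc2a with 364 ± 67.8, Morc4 with 12.2 ± 1.08 and Morc2b with 3.44 ± 2.00. Per length, Morc1 was higher than 98.2% of 22364 tested genes at E16.5 and than 70.6% at E13.5. Morc3 lay above 91.0% at E13.5 and 85.5% at E16.5.

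At P0 Morc1 had 1157 ± 33.0 normalized counts per kilobase, Morc3 838 ± 60.0, Morc2a 199.5 ± 8.10, Morc4 66.6 ± 7.68 and Morc2b 4.21 ± 0.716. At P3 Morc3 had 1798 ± 68.2 and Morc1 1679 ± 42.6, with Morc2a at 356 ± 37.8 and Morc4 at 19.5 ± 3.87. The last pair of leaders depended on the length used: over the longest transcript or the longest protein-coding transcript Morc1 led at P3, and over the latter it stood above Morc2a at E13.5. The other places in the order held under all 3 lengths tried.

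In shares of the summed per-kilobase level of the 5 genes, Morc1 made up 10.7% ± 1.11 for E13.5, 82.4% ± 1.55 for E16.5, 51.1% ± 0.732 for P0, and 43.6% ± 0.987 for P3 (SD, n = 3). Morc3 made up 72.8% ± 0.365, 11.1% ± 0.476, 37.0% ± 1.09 and 46.7% ± 1.01 at the same stages. Between E13.5 and E16.5 the leading gene of the family thus changed from Morc3 to Morc1. The Morc2a share lay between 6.20% at E16.5 and 15.8% at E13.5. Morc4 stayed under a few percent, from 0.210% at E16.5 to 2.94% at P0. The summed level itself was 2450.4 ± 170 for E13.5, 5876 ± 475 for E16.5, 2265 ± 96.3 for P0, and 3853 ± 127 for P3. Unlike the shares, these sums carry the deposited factors, which averaged highest at P0. They were not recomputed under another scaling, so no order of the stages is read from them.

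**Figure D3:**
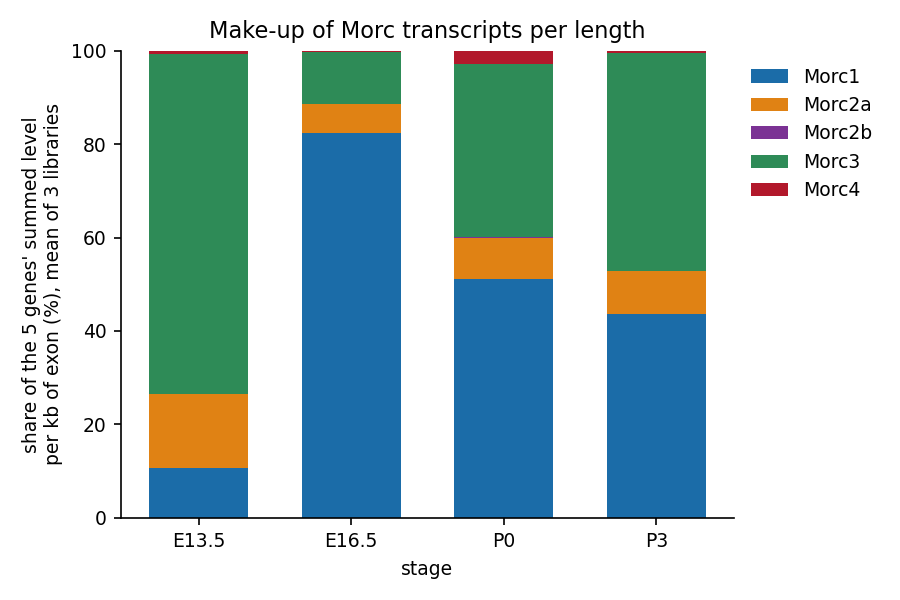
Mean share of each Morc gene in the family's summed level per kilobase of merged exon, by stage (mean of 3 libraries, in percent). Morc3 takes 72.8% at E13.5 and Morc1 takes 82.4% at E16.5.

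The ratio of a paralogue to Morc1 within a library is free of the library's size factor but for the pseudocount of 1. The log2 ratio of Morc3 to Morc1 was 2.69, 2.39 and 2.46 for E13.5, -3.25, -3.07 and -3.12 for E16.5, -0.67, -0.71 and -0.79 for P0, and -0.22, -0.11 and -0.14 for P3. No stage overlapped another, and the ratio fell and then came back part of the way. It fell by 5.66 from E13.5 to E16.5 (SE 0.09, 50.5-fold, limma adjusted p = 4.94e-20). It then rose by 2.42 to P0 (limma adjusted p = 1.15e-13) and by a further 0.57 to P3 (limma adjusted p = 1.63e-05).

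For Morc2a the log2 ratio to Morc1 was 0.79, 0.35 and 0.49 for E13.5, -4.09, -3.55 and -3.64 for E16.5, -2.61, -2.48 and -2.55 for P0, and -2.33, -2.32 and -2.12 for P3. All 4 stages kept apart. The change from E13.5 to E16.5 was -4.31 and that from E16.5 to P0 1.21 (limma adjusted p = 3.41e-16 and 1.27e-07). From P0 to P3 the change of 0.29 (95% interval 0.01 to 0.57) missed the threshold (limma adjusted p = 0.0550), and in a fit of only those 2 stages it passed (adjusted p = 0.00687). It also passed without E13.5 library 1 (adjusted p = 0.0390) or 3 (0.0481), or without E16.5 library 1 (0.0215) or 3 (0.0480).

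The log2 ratio of Morc4 to Morc1 was -3.89, -4.74 and -3.78 for E13.5, -8.90, -8.79 and -8.44 for E16.5, -4.14, -4.42 and -4.10 for P0, and -6.38, -6.84 and -6.37 for P3. E13.5 and P0 overlapped, with a difference of -0.09 (95% interval -0.62 to 0.45, limma adjusted p = 0.754), and the other stages kept apart. The change was -4.57 from E13.5 to E16.5, 4.49 from E16.5 to P0 and -2.31 from P0 to P3 (limma adjusted p = 3.82e-12, 1.87e-11 and 3.11e-07).

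Over Morc2a, Morc3 and Morc4, the F-test on the ratio to Morc1 called all 3, as it called 99.5% of all genes. All 3 fell against Morc1 from E13.5 to E16.5 and all 3 gained on it from E16.5 to P0, where 88.5% and 94.5% of all genes were called in either direction. From P0 to P3, 1 gained and 1 fell (74.8% of all genes called). Against E13.5, 2 were lower at P0 and 3 at P3 (86.4% and 85.6% of all genes called), and against E16.5 all 3 were higher at P3 (79.3%). Where Morc1 moved, a gene that kept its level also changes relative to it.

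**Figure D4:**
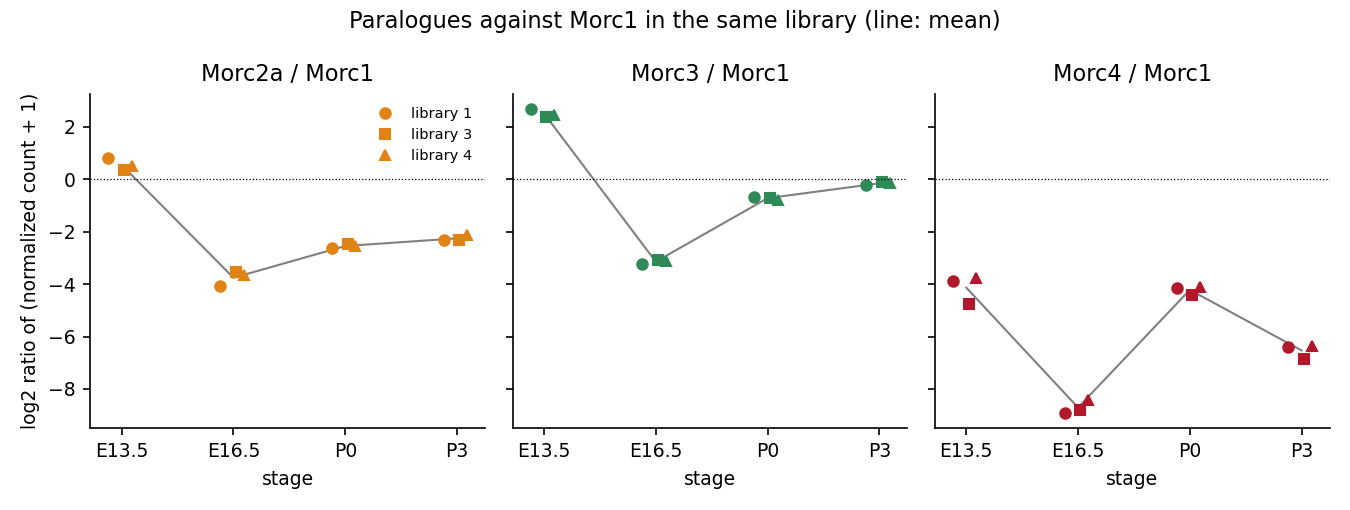
Log2 ratio of Morc2a, Morc3 and Morc4 to Morc1 in each library, with a line through the stage means and a dotted line at equal normalized counts (not corrected for length). Each paralogue is lowest at E16.5, and only Morc3 and Morc2a at E13.5 lie above 0.

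Genes with a profile most like that of a member were sought by the root mean square (RMS) difference of centred log2 values over the 12 libraries, among 13620 genes. For Morc1 the nearest were Clip3, a linker of membranes to microtubules, with an RMS difference of 0.176 and Pearson's r of 0.993, then Acap1 (0.297), the X-linked homeobox gene Rhox10 (0.315), Mfap2 (0.330) and Castor2 (0.333). Clip3 averaged 157, 2874, 753 and 875 normalized counts over the stages. Morc3 had closer companions in Ppp2cb, a catalytic subunit of protein phosphatase 2A (RMS difference 0.0569), and Tmem41b (0.0626). For Morc2a they were Trim39 (0.0841) and Spg11 (0.0985), for Morc4 Fitm1 (0.274) and Decr1 (0.337), and for Morc2b Hoxd1 (0.584) and Trabd2b (0.593). The points share libraries, and with 4 stages many genes can follow such a course.

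**Figure D5:**
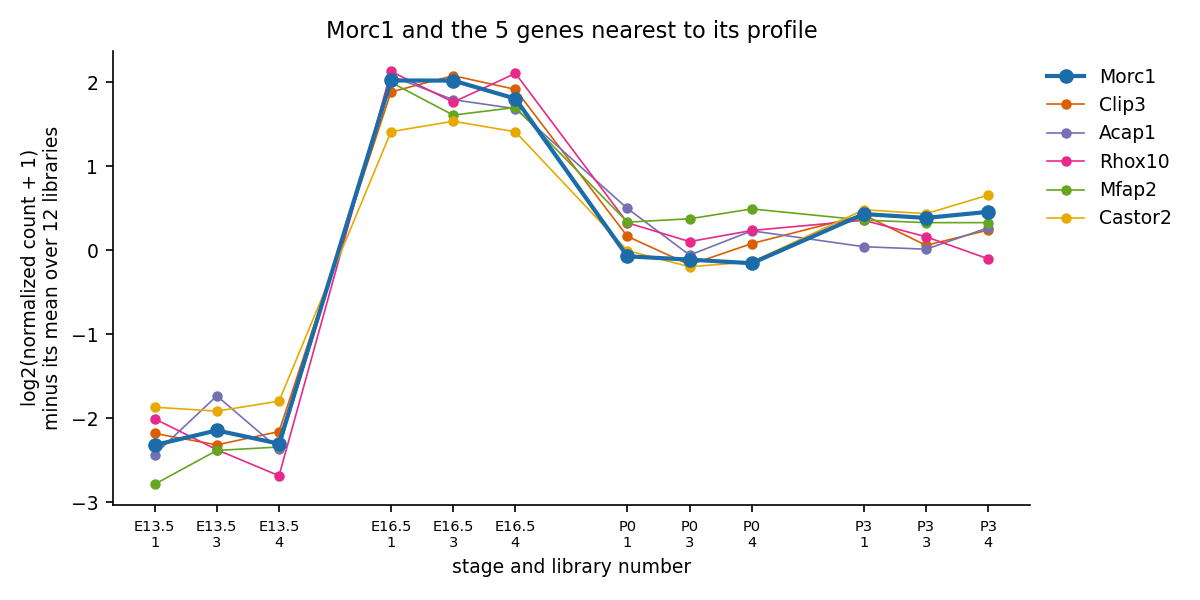
Centred log2(normalized count + 1) of Morc1 (thick line) and the 5 genes nearest to it in each of the 12 libraries, labelled by stage and library number. The lines run together, with all 6 genes highest at E16.5 and lowest at E13.5.

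The nearest protein-coding gene on each side of a member was read as well. Morc3 lies between Dop1b, 21.5 kb below it, and Chaf1b, 7.83 kb above it, which encodes a subunit of the histone chaperone CAF-1. Chaf1b averaged 4198, 477, 782 and 7569.9 normalized counts over the stages and moved in the direction of Morc3 at each step, by -3.15, 0.73 and 3.27 on the log2 scale. Dop1b moved the other way at each step, by 1.90, -1.01 and -0.31. All 6 of these changes passed the limma test, with a largest adjusted p of 0.0138. Next to Morc2a, Smtn changed by -1.63 and Osbp2 by 3.05 from E13.5 to E16.5, where Morc2a did not pass the test. Zfp563, 2.65 kb from Morc2b, changed by 0.59 (limma adjusted p = 0.000551). Cldn2, 10.2 kb from Morc4, was low throughout, at most 54.4 normalized counts on average, and highest at P0. On its other side Rbm41 averaged 157 at E13.5 and 47.6 to 64.8 at the later stages. Gm5485 and Trat1, on either side of Morc1, and Olfr55 beside Morc2b were under the filter and were not tested.

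Genes of related pathways were read from short lists, with the same limma calls. The piRNA-directed DNA methylation machinery of fetal gonocytes, listed as 14 genes that were all tested, is read beside Morc1. From E13.5 to E16.5, 13 rose and 1, the germ cell helicase gene Ddx4, fell (it rose with equal library totals), with a median log2 fold change of 3.57. Over all genes 45.5% rose and 34.6% fell, with a median of 0.31. The largest changes were in Spocd1 (11.11), Dnmt3l (10.12) and Tdrd9 (6.44). From E16.5 to P0 all 14 fell (9 with equal library totals and none higher), with a median of -1.17, the most in Piwil4 (-2.55) and Mov10l1 (-2.27), where 33.4% of all genes fell and the median gene moved by -0.01. From P0 to P3, 6 rose and 7 fell (3 and 11 with equal library totals), where 40.1% of all genes rose and 36.4% fell, with a median of 0.05. Spocd1 (-4.27), Dnmt3c (-3.92) and Dnmt3l (-3.65), which act in the methylation step itself, fell most, whereas Morc1 rose with the deposited scaling and fell with equal library totals.

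The 6 genes of the HUSH complex and its partners, with which MORC2 works, are read beside Morc2a. Of all genes, 45.5% rose and 34.6% fell from E13.5 to E16.5. The shares were 27.6% and 33.4% from E16.5 to P0, and 40.1% and 36.4% from P0 to P3. From E13.5 to E16.5, 5 fell and none rose (4 and 2 with equal library totals), with a median of -0.95, led by Fam208a, which encodes the HUSH subunit TASOR (-2.53), and Trim28 (-1.11). From E16.5 to P0 all 6 fell (median -0.90), or 3 with equal library totals. Morc2a fell too with the deposited factors, but was not called with equal library totals (-0.19, limma adjusted p = 0.187). From P0 to P3, 5 rose (median 0.83), led by Fam208a (2.32) and Pphln1 (2.29). With equal library totals 3 rose and 3 fell.

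Among 9 genes for partners of MORC3, PML bodies and SUMO, 6 fell and 2 rose from E13.5 to E16.5 (median -1.47). At that step 34.6% of all genes fell and 45.5% rose. Pml, the scaffold of the bodies, fell by 2.28 on the log2 scale, alongside Morc3. Sumo3 (1.31) and the histone gene H3f3a (0.88) rose. From E16.5 to P0, 8 fell and none rose, where 33.4% of all genes fell and 27.6% rose. Morc3 rose by 0.36 at this step. With equal library totals 4 of the 9 rose and 3 fell. From P0 to P3, 7 rose and 1, Sumo3, fell (median 0.88), where 40.1% of all genes rose and 36.4% fell. With equal library totals 4 rose and 3 fell.

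The domains of the family were read in the same way. Of 11 other GHKL ATPase genes, which include Hsp90 chaperones, mismatch repair genes and type II topoisomerases, 10 fell and none rose from E13.5 to E16.5 (8 and 2 with equal library totals), the most Top2a (-2.37), while Morc1 rose. From E16.5 to P0, 9 fell and 1, Top2b, rose (0.97), against 6 and 2 with equal library totals. From P0 to P3, 10 rose, led by Top2a (3.48), and Top2b fell, while with equal library totals 4 rose and 4 fell. Of 3 other genes with a CW-type finger, Kdm1b (2.86), a histone demethylase gene of germ cells, and Zcwpw1 (1.21) rose from E13.5 to E16.5, and all 3 fell from E16.5 to P0 (with equal library totals Kdm1b rose). For both domain lists, the shares of all genes that rose and fell were 45.5% and 34.6% from E13.5 to E16.5. They were 27.6% and 33.4% from E16.5 to P0, and 40.1% and 36.4% from P0 to P3. All lists are described by these counts alone, beside the shares of all genes called, and nothing particular to a list is read from them.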

How the data were processed

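Per the labels' protocols, the SMART-seq v4 kit for little RNA and the TruSeq mRNA kit gave the libraries. The submitters' processing notes name bcl2fastq 2.20, cutadapt 1.18, HISAT2 2.1.0, featureCounts 1.5.2, DESeq2 1.26.0 and the builds mm10 and GRCm38. The deposited signal is the count of reads on each gene over the size factor of its library. Checked against the worth of 1 read (tolerance 0.001), 100% of values came out whole in all 12 libraries, which gave back reads and factors.

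The members and gene lists were chosen with earlier results of these data known. The 22384 genes that reached 10 normalized counts in 3 or more libraries were tested on log2(normalized count + 1) with limma 3.58.1 (trend, 4 stages in 1 fit, 8 residual degrees of freedom, R 4.3.3), with Benjamini-Hochberg adjustment over all genes tested. Log2 fold changes are on that scale. The same fit was run on each gene's log2 ratio to Morc1. Morc2b was left out of the ratios and counts, because it was at 0 at E13.5. On recovered reads, edgeR 4.0.16 (quasi-likelihood) called 17851, 14370 and 17358 genes in the 3 consecutive comparisons, and limma 17932, 13658 and 17122. DESeq2 1.42.0 was a further alternative. Other alternatives were TMM, median-of-ratios and equal-total scaling, no filter, a filter on the mean (100), pseudocounts of 0.1 and 10, fits of 2 stages, a block on the column number, leaving out each library, and other gene lengths. The fits were also run on simulated counts drawn with the deposited factors, which cannot test the choice of scaling. Named genes are all members, the nearest profiles (mean of at least 100 in the highest stage, no predicted-gene names), the nearest protein-coding gene on each side, and up to 4 genes of a list with the largest change; 1 gene that met this rule is left out of the text. Symbols matched 55141 of 55487 identifiers (99.4%). Column numbers 1, 3 and 4 do not match the titles' replicate numbers, so columns were assigned to stages only. Gene models are GENCODE M21, and sequences come from its transcripts and from RefSeq (GRCm38.p6). Counting error is the only error that the floor of 3 reads covers.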

Additional observations from a re-analysis of the deposited data

How the results depend on the processing

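The numbers 1, 3 and 4 of the columns recur in all 4 stages, although the titles number their replicates otherwise. Deviations from the stage mean of same-numbered libraries correlated across genes at -0.0356 to 0.0423 over 18 pairs of libraries. Only 2 of 12 libraries correlated best with their own number. With 3 libraries a stage, these values cannot settle whether same-numbered libraries share more than the number. A replicate block on that number, chosen after seeing the data, called 17911, 13529 and 17028 genes in the 3 consecutive comparisons and changed no member's call. The scaling mattered most: against the deposited factors, the median gene's log2 fold change shifted by up to 1.13 with equal library totals (P0 against E13.5), by up to 0.46 with median-of-ratios factors and by up to 0.30 with TMM factors. With equal library totals the rise of Morc1 from P0 to P3 became -0.30, and with median-of-ratios factors 0.10. Equal totals called 2 of 4 members at P0 against E13.5, where the deposited factors called 4, and 3 at P3 against E13.5, where they called 1. They turned Morc2a to 0.41 and Morc4 to 0.13 (E16.5 against E13.5), Morc2a to -0.0108 (P3 against P0), 0.22 (P0 against E13.5) and 0.21 (P3 against E13.5), and Morc3 to 0.0781 (P0 against E13.5). Median-of-ratios factors turned Morc2a to 0.12 (E16.5 against E13.5). The other 5 comparisons of Morc1 kept direction and call under all 23 alternatives.

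Leaving out each library changed the sign of small differences only. The ranges were -0.238 to 0.0272 for Morc2a between E13.5 and E16.5, and between E16.5 and P3 -0.148 to 0.118. They were -0.0788 to 0.837 for Morc2b at P0 against E16.5, -0.0364 to 0.0691 for Morc3 at P3 against E13.5, and -0.390 to 0.0925 for Morc4 relative to Morc1 at P0 against E13.5. The Morc1 share by stage was 13.2%, 85.9%, 56.99% and 49.5% with the longest transcript as length, and 16.7%, 88.9%, 63.6% and 56.4% with the longest protein-coding transcript, a choice made after seeing the data.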
